A study of Mus musculus with 12 samples.

Results

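The cortex of mouse embryos with a conditional knockout (cKO) of BAF155 was compared directly with cortex from libraries labelled Pax6 cKO. The comparison rests on 4 BAF155 cKO libraries and 4 libraries labelled Pax6 cKO, 8 of the 12 libraries of the series, and on 15863 autosomal genes of the 16511 genes that passed a filter on low counts. The remaining 4 libraries are controls and served as a reference level. Per the file names, all 4 controls were in lane 8 and the knockout libraries in lanes 1 and 3. A difference from control therefore cannot be told apart from one between lanes. All 12 hold total RNA from cortex at E15.5 of the strain C57BL/6J, and sample titles give the genotype. The study's own stated comparisons set each knockout against control. Neither the Cre driver nor the deleted exons, the genotype of the controls or the number of embryos behind a library is given in the sources used here. The p-values therefore cover the spread among these libraries only, and that spread may be technical. Values per library are listed in the order of replicates 1 to 4.

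BAF155, the product of Smarcc1, is a core scaffold subunit of the BAF complex, an ATP-driven machine that moves nucleosomes and opens chromatin. Pax6 is a homeodomain transcription factor made in radial glia, which are stem cells lining the ventricle of the embryonic cortex, where it drives neurogenesis and keeps dorsal identity apart from ventral identity. Radial glia give rise to basal intermediate progenitors, which divide away from the ventricle and produce glutamatergic neurons, while GABAergic interneurons migrate in from the ventral telencephalon.

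Total counts were 15.2 to 28.3 M reads in the BAF155 cKO libraries, 22.8 to 32.05 M in the libraries labelled Pax6 cKO and 21.4 to 30.3 M in the controls. The cortical markers Emx1, Neurod6 and Tbr1 were detected in all 12 libraries, Tbr1 at 149.5 to 472 counts per M (CPM, scaled by TMM). Sex differed completely between the knockout groups. Xist, the long RNA of the inactive X chromosome, was at 1812 to 3187 reads per M in the BAF155 cKO and at 2.25 to 3.02 in the libraries labelled Pax6 cKO, while Y-linked genes were at 5.45 to 14.2 and 308 to 428 reads per M. Controls 1 and 2 had Y-linked reads and controls 3 and 4 had Xist. Among the 8 knockout libraries, sex and genotype cannot be told apart. In pairwise comparisons of counts, BAF155 cKO replicates 2 and 3 were closest to each other (chi-square of 9.69 per gene). Replicate 1 was closest to replicate 4 (14.2), but by this measure replicate 4 was closer to replicate 1 labelled Pax6 cKO (10.6) than to any BAF155 cKO library. The Pearson r of log2 CPM ranked them otherwise. For replicate 4 it was 0.9898 with BAF155 cKO replicate 1, 0.9881 with BAF155 cKO replicate 3 and 0.9877 with labelled Pax6 cKO replicate 1. The mitochondrial share of reads was higher in replicates 1 and 4 than in 2 and 3, with 2.92%, 1.57%, 2.09% and 3.27% across the BAF155 cKO libraries, beside 2.04% to 2.91% under the Pax6 cKO label. Across the controls it was 2.27%, 2.18%, 1.21% and 1.38%, so controls 1 and 2 were the higher pair.

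Smarcc1, the gene targeted in the BAF155 cKO, was lowest in that group. It was at 122, 133, 139 and 115 CPM across the BAF155 cKO libraries, 177, 187, 185 and 194 CPM across those labelled Pax6 cKO and 219.7, 275, 359 and 361 CPM across the controls. The groups did not overlap, and the labelled Pax6 cKO libraries lay between the BAF155 cKO and the controls. The log2 fold change, BAF155 cKO minus labelled Pax6 cKO as in every value below, was −0.55 (SE 0.13, adjusted p = 0.0286, edgeR's quasi-likelihood test with Benjamini-Hochberg adjustment). The call was lost without BAF155 cKO replicate 1 or 4 or any one labelled Pax6 cKO library (adjusted p up to 0.0852). With sex as a term in the fit, which controls of both sexes make possible, the difference was −1.09 (adjusted p = 0.00997). Exons of Dhx30 overlap those of Smarcc1, and the library kit does not mark strand, so reads of the overlap are uncertain.

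Pax6 counts went against the Pax6 cKO label. Pax6 was at 379.9, 399, 384 and 392.4 CPM across the libraries with that label, 313, 369, 273 and 301 CPM across the BAF155 cKO libraries and 82.001, 118, 125 and 116 CPM across the controls. Both knockout groups stood above all 4 controls, and the libraries labelled Pax6 cKO were the highest. The difference between the knockout groups, −0.31 (SE 0.12, adjusted p = 0.152), was not called. With each library's trend on exon length removed, a setting added after the data were seen, its adjusted p was 0.036. Whole-gene counts can include reads from outside a deleted part, so the counts do not test the deletion. The group is written as labelled throughout, and every direction below is drawn against libraries whose Pax6 level does not show the labelled loss. Smarcc2, the paralog of Smarcc1 that encodes BAF170, was at 565 ± 80.2 CPM in the BAF155 cKO and 489 ± 26.3 CPM under the Pax6 cKO label (mean ± SD, n = 4 each), a log2 difference of 0.21 (edgeR adjusted p = 0.276).

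Of the 15863 autosomal genes, 681 (4.29%) were called at an adjusted p under 0.05, 362 of them (2.28%) higher in the BAF155 cKO and 319 (2.01%) lower. The difference was at least 2-fold for 144 genes (0.908%), with 60 higher (0.378%) and 84 lower (0.53%). The 4 libraries of one group lay entirely on one side of the other 4 for 2422 genes (15.3%), among them 661 of the called genes (4.17% of all tested). The log2 fold change was above 0 for 51.8% of tested genes, with a median of 0.01, and was 1 or more for 1.62% whatever the p. Most called differences were modest, with a median size of 0.61 on the log2 scale. Leaving out 1 library at a time gave 154 to 492 genes higher and 139 to 369 lower. The lowest counts came without labelled Pax6 cKO replicate 3 (154 higher) and replicate 2 (139 lower). The exons of 218 of the 681 called genes overlap those of another gene, and since the library kit does not mark strand, their counts are uncertain to that extent. Named genes with such an overlap, called or not, include Ccne2, Cdh12, Cux1, Dlx1, Dlx6os1, Ebf2, Ebf3, Eif3j1, Eif3j2, Eomes, Fat1, Fat4, Fgf10, Fgfr3, Fn1, Gria4, Hgf, Hopx, Jmjd7, Kmt2a, Notch2, Notch3, Nphs1, Npr3, Nr2f1, Nr2f2, Pdgfra, Pla2g4b, Plxna4, Prss41, Sdc3, Sfrp2, Smarcc1, Sorbs2, Sorl1, Tagap and Veph1.

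**Figure D1:**
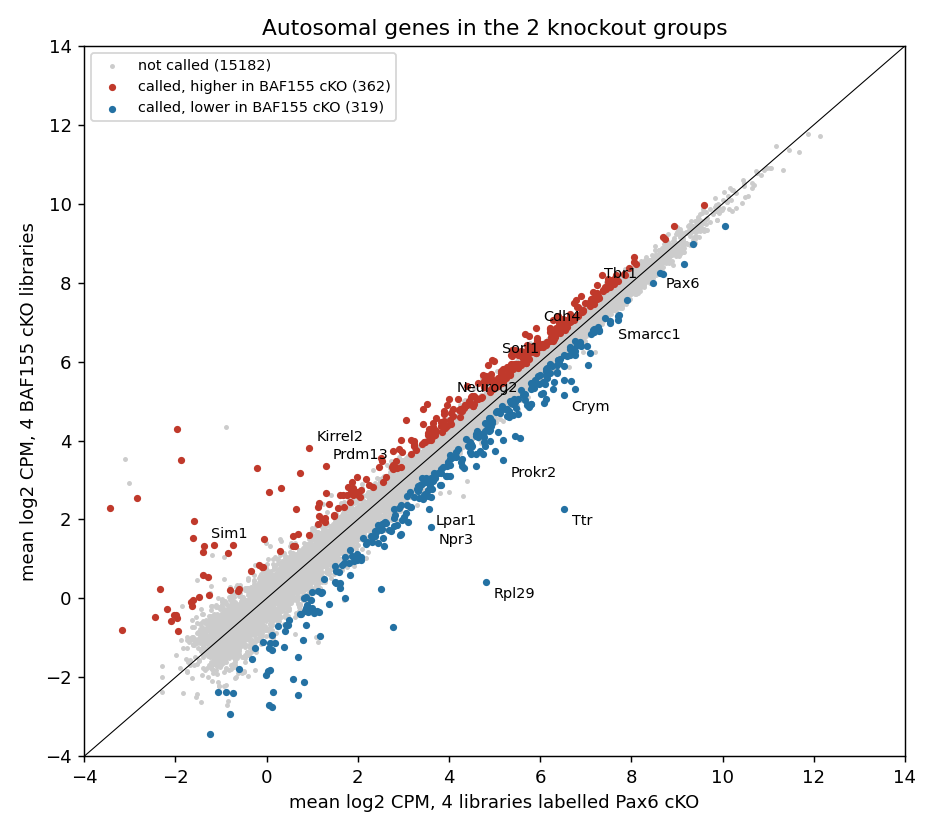
Mean log2 CPM of 15863 autosomal genes in the 4 libraries labelled Pax6 cKO (x axis) and the 4 BAF155 cKO libraries (y axis); red points are the 362 genes called higher in the BAF155 cKO, blue points the 319 called lower, and grey points the genes not called. Kirrel2, Prdm13 and Sim1 stand above the line of equality at low levels, and Ttr and Rpl29 stand farthest below it.

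The controls, in a lane of their own, gave a reference level for these differences. Of the 362 genes higher in the BAF155 cKO, the control mean lay above both knockout groups for 193, between them for 139 and below both for 30. Of the 319 genes lower in the BAF155 cKO, it lay above both for 53, between for 165 and below both for 101. Over all tested genes the control mean was above both for 6221, between for 2923 and below both for 6719.

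The same controls also split by sex, though not by sex alone. The mitochondrial share was 2.27% and 2.18% in controls 1 and 2 and 1.21% and 1.38% in controls 3 and 4. For 271 of the 681 called genes (39.8%), controls 3 and 4 differed from controls 1 and 2 in the direction of the knockout difference and by at least 50% of its size. Over all 15863 autosomal genes tested the share was larger, with 8833 genes (55.7%). The knockout difference was smaller there, with a median size of 0.16 against 0.61 for called genes. Across the 681 genes the 2 differences had a Pearson r of 0.763, and over all tested genes 0.439. This describes these libraries only, since genes are not independent and the 2 control pairs differ in more than sex. Which property goes with the split was not tested. For 148 called genes (21.7%), and for 52 of the 144 at least 2-fold (36.1%), the BAF155 cKO libraries and controls 3 and 4 all lay on one side of the libraries labelled Pax6 cKO and controls 1 and 2, against 377 of all 15863 (2.38%). Such a split needs knockout groups that do not overlap, which held for 661 of the 681 called genes but 2422 of all 15863 (15.3%). The shares of called and of all genes therefore cannot be compared directly. With a sex term in the fit, 13 genes were called (0.082%), 6 higher (0.0378%) and 7 lower (0.0441%), and 9 of them were among the 681. The median SE of a log2 fold change rose from 0.13 to 0.20 with that term, and 30 of the 681 called genes changed sign. The sex term rests on 2 controls of each sex. Apart from those 9, no call described below was kept with it, and where it moved the difference of a named gene of the lists by over 1.5 times the new value is given at the end of the paragraph.

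**Figure D2:**
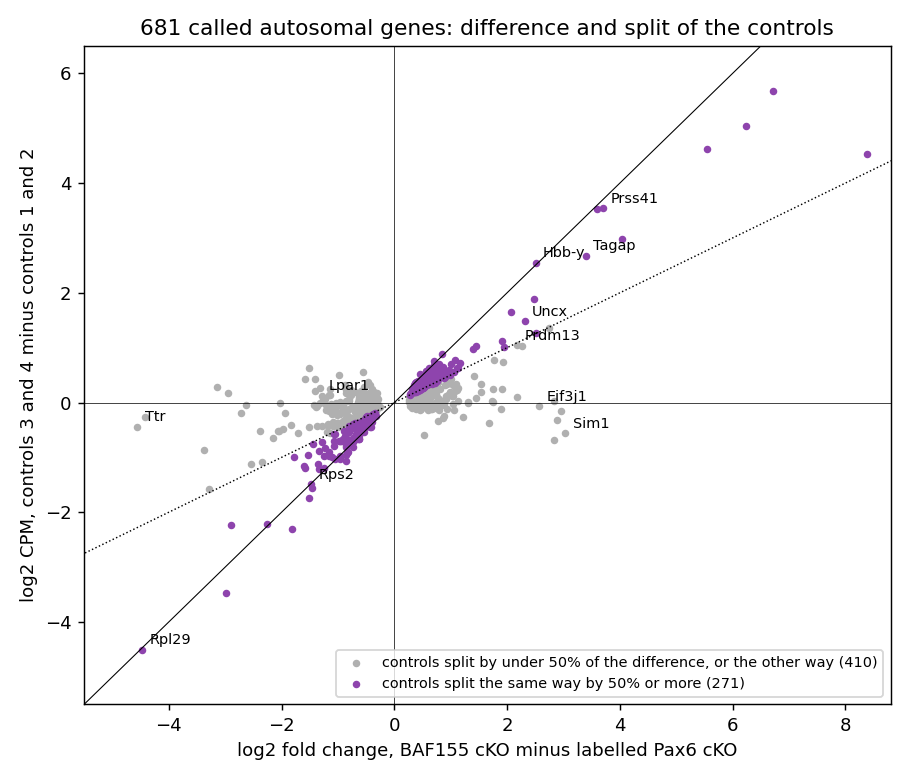
Log2 fold change between the knockout groups (x axis, BAF155 cKO minus labelled Pax6 cKO) and log2 CPM of controls 3 and 4 minus controls 1 and 2 (y axis) for the 681 called genes; the solid line marks equal values and the dotted line 50% of the difference. The 271 purple genes, Rpl29, Prss41 and Tagap among them, split the controls the same way by 50% or more, while Sim1, Lpar1 and Eif3j1 do not.

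Some regulators of brain regions outside the cortex, Kirrel2, Prdm13 and Sim1 among them, were called higher in the BAF155 cKO, and no call in this list was kept with a sex term. Of 50 such genes on the list, 16 passed the filter on low counts. A gene silent in cortex passes through the group where it is high, so the counts that follow are a description only. Of the 16, 7 were called higher and 0 lower (43.8%), with a median log2 difference of 0.83 against 0.01 over all autosomal genes. In bulk tissue, more cells of a type and more RNA per cell cannot be told apart. In all 7 the control mean was below both knockout groups.

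Kirrel2 (chromosome 7, 30447534 to 30457690, mm10), which encodes an immunoglobulin-type adhesion protein known as a marker of GABAergic progenitors in the cerebellum, had the smallest adjusted p of all autosomal genes. It was at 11.9, 20.3, 12.05 and 12.6 CPM across the BAF155 cKO libraries, 2.05, 1.91, 1.68 and 1.70 CPM across those labelled Pax6 cKO and 0.231, 0.379, 0.145 and 0.430 CPM across the controls. The 3 groups did not overlap. The log2 difference was 2.96 (SE 0.21, adjusted p = 3.97e-06), or 7.77-fold. Nphs1, which encodes the slit diaphragm protein nephrin, starts beside Kirrel2 on the opposite strand (30458315 to 30487223). It was at 3.96, 2.07, 0.888 and 2.94 CPM in the BAF155 cKO, 0.122 to 0.636 CPM under the Pax6 cKO label and 0 to 0.132 CPM in the controls (2.83, SE 0.46, adjusted p = 0.00307). The exons of Nphs1 overlap those of Nphs1os, so its reads may be shared. Nphs1 had a log2 difference of 4.63 with the sex term (adjusted p = 0.718).

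Prdm13, a transcription factor that specifies GABAergic over glutamatergic fate in the dorsal spinal cord, was at 11.4, 15.95, 8.12 and 7.28 CPM in the BAF155 cKO and 2.40, 2.32, 2.38 and 2.40 CPM under the Pax6 cKO label. The controls were at 0.0992, 0.0947, 0.290 and 0.287 CPM, below every knockout library, and those with Xist were the higher pair. The difference was 2.18 (SE 0.23, adjusted p = 0.000106). Ptf1a, a partner in the same GABAergic programme, did not pass the filter. It had 6, 14, 4 and 2 raw reads in the BAF155 cKO, 1, 1, 3 and 2 under the Pax6 cKO label and 0, 0, 0 and 1 in the controls, and the knockout groups overlapped. Prdm13 had a log2 difference of 0.67 with the sex term (adjusted p = 0.865).

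Sim1, a bHLH-PAS factor required for neurons of the paraventricular hypothalamus, was at 1.51, 3.32, 2.35 and 3.0004 CPM in the BAF155 cKO against 0.213 to 0.389 CPM under the Pax6 cKO label and 0 to 0.0992 CPM in the controls (3.03, SE 0.33, adjusted p = 0.000106). Otp, a homeodomain factor of the same hypothalamic neurons, was not called (1.79, adjusted p = 0.172), and its groups overlapped, with raw counts of 2, 54, 23 and 17 in the BAF155 cKO and 21, 0, 13 and 2 under the Pax6 cKO label. With BAF155 cKO replicates 2 and 3 alone, a setting chosen after the data were seen, Otp had an adjusted p of 0.043. Other hypothalamic markers did not follow Sim1: Rax was at 0 in all 12 libraries and Nkx2-1 ranged over 1.53 to 6.21 CPM in the BAF155 cKO and 1.30 to 10.6 CPM under the Pax6 cKO label. Uncx, a homeodomain factor of somites and of neurons outside the cortex, was at 0.761 to 1.92 CPM against 0.218 to 0.389 CPM (2.31, SE 0.40, adjusted p = 0.00424). Its controls were at 0.0331, 0, 0.193 and 0.191 CPM, those with Xist higher, but these levels rest on very few reads. With a sex term the Uncx difference was −0.69 (SE 1.01, adjusted p = 0.867). Lhx9, a LIM homeodomain factor of the diencephalon, and Olig3, a bHLH factor of the dorsal hindbrain and spinal cord, complete the 7, with differences of 0.85 (adjusted p = 0.029) and 1.75 (adjusted p = 0.0419). The Lhx9 call was lost without BAF155 cKO replicate 1 or 2 or any one labelled Pax6 cKO library (adjusted p up to 0.0978) and that of Olig3 without BAF155 cKO replicate 2, 3 or 4 or labelled Pax6 cKO replicate 1, 3 or 4 (adjusted p up to 0.147). The controls with Xist were at 26.4 and 33.2 CPM of Lhx9, the others at 20.4 and 12.7 CPM. Lhx9 and Olig3 complete the count and were chosen after their values were seen. Over the leave-one-out fits, 5 to 7 of the 16 were called higher, and with a sex term 0 were. Lhx9 had a log2 difference of 0.0072 with the sex term (adjusted p = 0.995).

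The stretches before the start sites of Kirrel2, Sim1, Uncx and Prokr2 are shown because these are called genes with large differences, 3 higher and 1 lower in the BAF155 cKO. Each is 250 bases from RefSeq (build GRCm38.p6), written 5′ to 3′ up to the base before the start site, with matches to 4 motifs in capitals. The motifs, searched on both strands, were CAGCTG with its E-box relatives written CAGATG and also CACCTG (letters that bHLH factors bind), and the homeodomain core TAATTA. None of these overlaps another in the windows printed.
Kirrel2 (chr7:30457516-30457765, minus strand): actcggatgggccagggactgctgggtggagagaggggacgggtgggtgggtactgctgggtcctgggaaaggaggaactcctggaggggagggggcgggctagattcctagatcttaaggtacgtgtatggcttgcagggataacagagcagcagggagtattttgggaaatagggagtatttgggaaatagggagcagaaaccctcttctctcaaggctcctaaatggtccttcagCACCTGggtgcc
Sim1 (chr10:50895401-50895650, plus strand): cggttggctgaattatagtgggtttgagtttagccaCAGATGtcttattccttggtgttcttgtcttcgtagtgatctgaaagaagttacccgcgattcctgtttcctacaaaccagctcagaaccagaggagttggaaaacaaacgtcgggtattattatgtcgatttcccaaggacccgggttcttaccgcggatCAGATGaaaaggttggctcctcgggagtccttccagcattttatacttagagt
Uncx (chr5:139543648-139543897, plus strand): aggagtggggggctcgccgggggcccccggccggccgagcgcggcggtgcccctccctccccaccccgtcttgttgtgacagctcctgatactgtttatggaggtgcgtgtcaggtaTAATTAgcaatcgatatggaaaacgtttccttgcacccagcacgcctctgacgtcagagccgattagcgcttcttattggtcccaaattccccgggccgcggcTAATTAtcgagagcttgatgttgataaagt
Prokr2 (chr2:132385448-132385697, minus strand): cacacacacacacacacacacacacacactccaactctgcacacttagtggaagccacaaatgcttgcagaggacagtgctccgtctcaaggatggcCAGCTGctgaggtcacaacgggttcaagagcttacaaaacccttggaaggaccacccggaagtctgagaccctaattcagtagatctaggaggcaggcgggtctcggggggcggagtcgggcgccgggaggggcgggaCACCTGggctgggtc

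In these windows CACCTG starts 12 bases before the start of Kirrel2 and 15 before that of Prokr2, where CAGCTG starts at 153. CAGATG stands at 53 and 214 in Sim1 and TAATTA at 30 and 133 in Uncx. RefSeq windows were matched for 11332 tested genes. TAATTA was in 2.30% of them, in 4 of 42 windows of genes at least 2-fold higher (9.52%, Ackr4, Neurog1, Tfap2a and Uncx) and in 2 of 52 of genes at least 2-fold lower (3.85%). CAGCTG was in 11.9% of all windows, 16.7% of the higher and 11.5% of the lower ones. CAGATG was in 10.2%, 7.14% and 13.5%, and CACCTG in 15.4%, 14.3% and 17.3%. A match is a description of the letters, not of a bound site.

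Some genes of neurogenesis and basal intermediate progenitors, Neurog2 among them, were called higher in the BAF155 cKO, while most of the list was not called and no call in it was kept with a sex term. Of 24 members, all tested, 8 were called higher, 1 lower and 15 were not called (37.5%, median log2 difference 0.30), against 4.29% of autosomal genes. For 4 of the 9 called genes the controls with Xist differed from the other controls in the same direction by at least 50% of the difference. Over all autosomal genes tested 55.7% had such a split, and over all called genes 39.8%. The control mean lay above both knockout groups for 8 of the 9. For the members called higher other than Nhlh1, the control mean thus lay above both knockout means, with the Pax6 cKO label the lowest. The distance from control varied. For Btg2 the BAF155 cKO, at 67.8 to 90.02 CPM, overlapped the controls at 68.3 to 88.3 CPM. Over the leave-one-out fits, 7 to 9 members were called higher.

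Neurog2, the proneural bHLH factor that Pax6 is known to activate, was at 34.9, 48.4, 27.3 and 26.2 CPM across the BAF155 cKO libraries, 16.5, 17.1, 15.45 and 14.98 CPM across those labelled Pax6 cKO and 92.4, 115, 167 and 154 CPM across the controls. No library of one group reached the range of another. The difference between the knockout groups was 1.11 (SE 0.20, adjusted p = 0.00608), or 2.15-fold. Neurog1, a second proneural factor, was at 0.932, 1.46, 0.888 and 1.15 CPM and 0.177, 0, 0.335 and 0.0873 CPM in the knockout groups beside 1.45 to 5.95 CPM in the controls (2.75, SE 0.61, adjusted p = 0.0192). Its call was lost without BAF155 cKO replicate 2 or labelled Pax6 cKO replicate 2 or 4 (adjusted p up to 0.0724). Neurog2 and Neurog1 had log2 differences of 0.48 and 1.42 with the sex term (adjusted p from 0.75 to 0.785).

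Nhlh1, a bHLH factor of newborn neurons, was at 33.04, 42.5, 24.7 and 24.5 CPM in the BAF155 cKO and 10.8, 11.6, 12.4 and 11.003 CPM under the Pax6 cKO label (1.45, SE 0.24, adjusted p = 0.00422). Its controls were at 17.2, 17.2, 36.6 and 34.2 CPM, so those with Xist were higher, by 71.4% of the knockout difference. Btg2, an antiproliferative gene of progenitors that are about to make neurons, was at 67.8 to 90.02 CPM against 51.2 to 51.9 CPM (0.59, SE 0.10, adjusted p = 0.00337). Neurod4, Sstr2, Sorbs2 and Rhbdl3 were the other members called higher, with differences of 1.10, 0.63, 0.57 and 0.86. Nhlh1, Btg2, Sorbs2 and Rhbdl3 had log2 differences of 0.41, 0.33, 0.19 and 0.22 with the sex term (adjusted p from 0.738 to 0.813).

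Eomes, the T-box factor that defines intermediate progenitors, was not called. It was at 65.8, 87.1, 54.4 and 48.1 CPM in the BAF155 cKO and 55.8, 52.001, 50.4 and 52.6 CPM under the Pax6 cKO label, and the groups overlapped (0.28, SE 0.17, adjusted p = 0.366). The controls were at 177 to 299.96 CPM, above all 8 knockout libraries. The member called lower was Tac2, a tachykinin precursor, at 0.311 to 0.507 CPM against 0.853 to 1.14 CPM (−1.39, SE 0.34, adjusted p = 0.031). Its call was lost without BAF155 cKO replicate 1 or 2 or any one labelled Pax6 cKO library (adjusted p up to 0.0913).

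**Figure D3:**
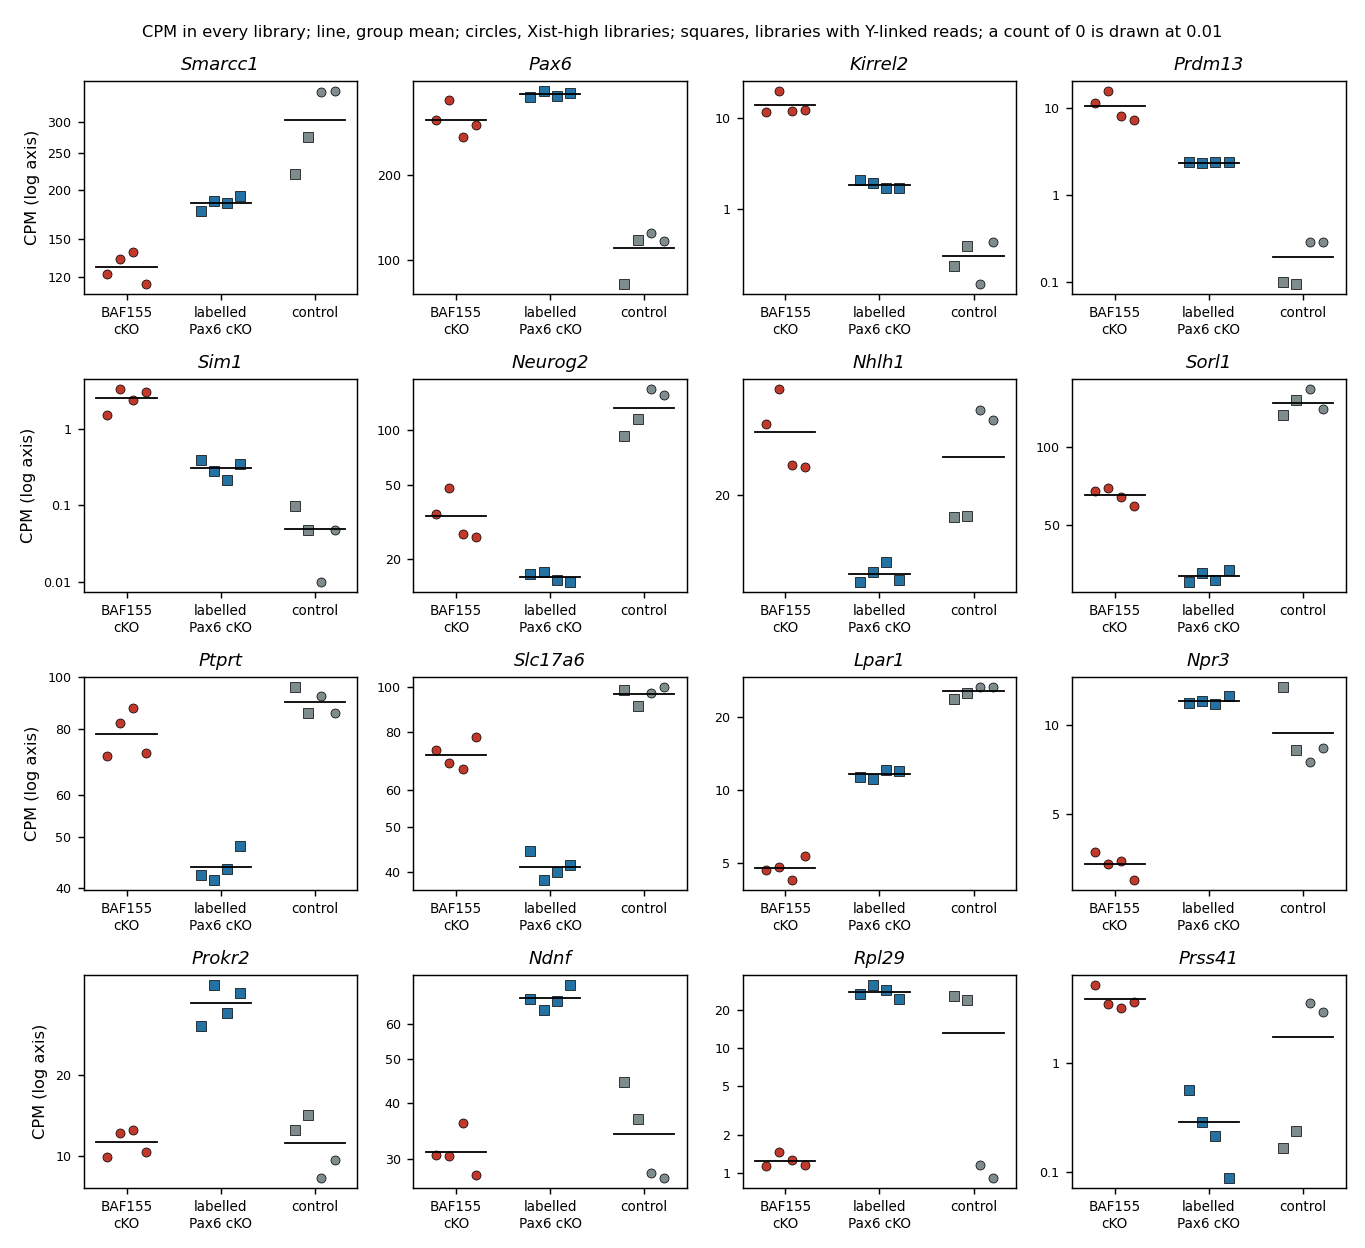
CPM in each of the 12 libraries (log axes) for 16 genes, by group; circles are libraries with Xist, squares libraries with Y-linked reads, lines group means, and a count of 0 is drawn at 0.01 CPM. Kirrel2, Prdm13 and Sim1 were highest in the BAF155 cKO, Neurog2, Sorl1 and Slc17a6 stood between the libraries labelled Pax6 cKO and the controls, and Rpl29 and Prss41 split the controls by sex.

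Receptors, adhesion molecules and a transporter were among the genes of smallest adjusted p. Lpar1 (chromosome 4, 58435255 to 58553898), a G protein-coupled receptor for lysophosphatidic acid known from the ventricular zone, was at 4.66, 4.82, 4.25 and 5.36 CPM in the BAF155 cKO, 11.3, 11.1, 12.1 and 12.1 CPM under the Pax6 cKO label and 23.8, 25.3, 26.8 and 26.7 CPM in the controls. The 3 groups did not overlap, and the BAF155 cKO was the lowest. The difference was −1.29 (SE 0.10, adjusted p = 9.5e-06), and with a sex term −1.41 (adjusted p = 0.003).

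Sorl1, an endosomal sorting receptor, was higher. It was at 67.4, 69.4, 64.4 and 59.3 CPM in the BAF155 cKO, 30.2, 32.7, 30.8 and 33.6 CPM under the Pax6 cKO label and 132 to 167 CPM in the controls (1.03, SE 0.09, adjusted p = 1.4e-05). Ptprt, a receptor tyrosine phosphatase that mediates homophilic adhesion, was at 71.02, 82.1, 87.5 and 71.8 CPM against 42.3, 41.4, 43.5 and 47.9 CPM (0.84, SE 0.09, adjusted p = 8.39e-05), with the controls at 85.5 to 95.98 CPM. Slc17a6, the vesicular glutamate transporter VGLUT2, was at 66.5 to 77.9 CPM against 38.4 to 44.4 CPM, with the controls at 90.9 to 99.9 CPM (0.80, SE 0.08, adjusted p = 5.04e-05). The mean of the BAF155 cKO stood between the other groups for all 3 genes. Each call was kept with a sex term (adjusted p = 0.0234 for Sorl1, 0.0398 for Ptprt and 0.0433 for Slc17a6).

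A list of receptor tyrosine phosphatases and adhesion receptors also held receptors of other kinds, such as Lpar1 and Sorl1. Of its 34 genes tested, 7 were called higher and 1 lower (23.5%, median log2 difference 0.26), the lower one being Lpar1. The list was written with earlier results of these data known, and its members Lpar1, Sorl1 and Ptprt were fixed by name, so its share of calls is a description only. Of 29 cadherins and protocadherins, 9 were called higher and 0 lower (31%, median log2 difference 0.27). Cdh4, or R-cadherin, an adhesion molecule of neurons and their axons, was at 99.7, 127, 133 and 103 CPM in the BAF155 cKO and 58.2, 60.5, 62.4 and 57.6 CPM under the Pax6 cKO label (0.95, SE 0.10, adjusted p = 0.000102), with the controls at 168 to 207 CPM. The atypical cadherins Fat1 (0.70, SE 0.10, adjusted p = 0.00134), Fat3, Fat4, Celsr1 and Celsr2, which act in planar polarity and growth control, were among the 9, and Celsr1 differed most (1.07, SE 0.17, adjusted p = 0.00288). The Fat3 call was lost without BAF155 cKO replicate 2 or 3 or any one labelled Pax6 cKO library (adjusted p up to 0.0867) and that of Celsr2 without BAF155 cKO replicate 1 or labelled Pax6 cKO replicate 2, 3 or 4 (adjusted p up to 0.081). For all 9 the control mean was above both knockout groups, and for 5 of the 9 the controls with Xist were higher by at least 50% of the difference. A split of that size in the direction of the difference was found for 55.7% of all autosomal genes tested and 39.8% of those called. Fat3, Fat4, Celsr1 and Celsr2 had log2 differences of 0.013, 0.30, 0.50 and 0.21 with the sex term (adjusted p from 0.754 to 0.982).

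Of 46 axon guidance genes, 13 were called higher and 2 lower (32.6%, median log2 difference 0.31). Epha3, an ephrin receptor that sorts growing axons, was at 159, 203, 187 and 167 CPM in the BAF155 cKO and 95.9, 115, 105 and 114 CPM under the Pax6 cKO label (0.74, SE 0.10, adjusted p = 0.000855). Epha5, a related receptor, was at 375 to 428 CPM against 252 to 282 CPM (0.59, SE 0.09, adjusted p = 0.00213). Neither gene's knockout groups overlapped. Others called higher were Unc5d, a netrin receptor of migrating upper-layer neurons (0.56, SE 0.09, adjusted p = 0.00254), the netrin receptor Dcc (0.79), the repellent Slit2 (0.95), its receptor Robo1 (0.50), the semaphorin Sema3a (0.68), and the semaphorin receptors Plxna2 (0.51), Plxna4 (0.62) and Plxnd1 (0.56). Epha5, Dcc, Slit2, Robo1, Plxna2 and Plxnd1 had log2 differences of 0.35, 0.24, 0.57, 0.32, 0.24 and 0.32 with the sex term (adjusted p from 0.682 to 0.802).

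The 2 axon guidance genes called lower were Sema3c (−0.62, adjusted p = 0.0388), a secreted semaphorin, and Ephb3 (−0.36, adjusted p = 0.0323), an ephrin receptor. Both calls depended on single libraries. That of Sema3c was lost without BAF155 cKO replicate 1, 3 or 4 or labelled Pax6 cKO replicate 2, 3 or 4 (adjusted p up to 0.118), and its controls, at 171, 130, 99.3 and 96.8 CPM, split by 97.1% of the knockout difference. That of Ephb3 was lost without BAF155 cKO replicate 1, 2 or 3 or labelled Pax6 cKO replicate 1, 2 or 4 (adjusted p up to 0.103). Sema3c had a log2 difference of −0.0029 with the sex term (adjusted p = 0.998).

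The genes of these 3 lists are long, and length moved with the difference. The median exon length was 8296 bases for axon guidance genes, 9024 for cadherins and 10242.5 for the receptor list, beside 4151 over all autosomal genes tested. From the shortest to the longest quartile of exon length the median log2 difference went from −0.09 to −0.02, 0.03 and 0.10, and the calls from 30 higher and 89 lower to 198 higher and 68 lower. With each library's trend on exon length removed, 11 axon guidance genes, 6 cadherins and 5 genes of the receptor list were called higher, with list medians of 0.25, 0.16 and 0.15. The whole table then gave 275 genes higher and 342 lower, which is 44.6% of calls higher against 53.2%. Over the leave-one-out fits these lists had 12 to 17, 5 to 10 and 6 to 9 genes called higher.

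**Figure D4:**
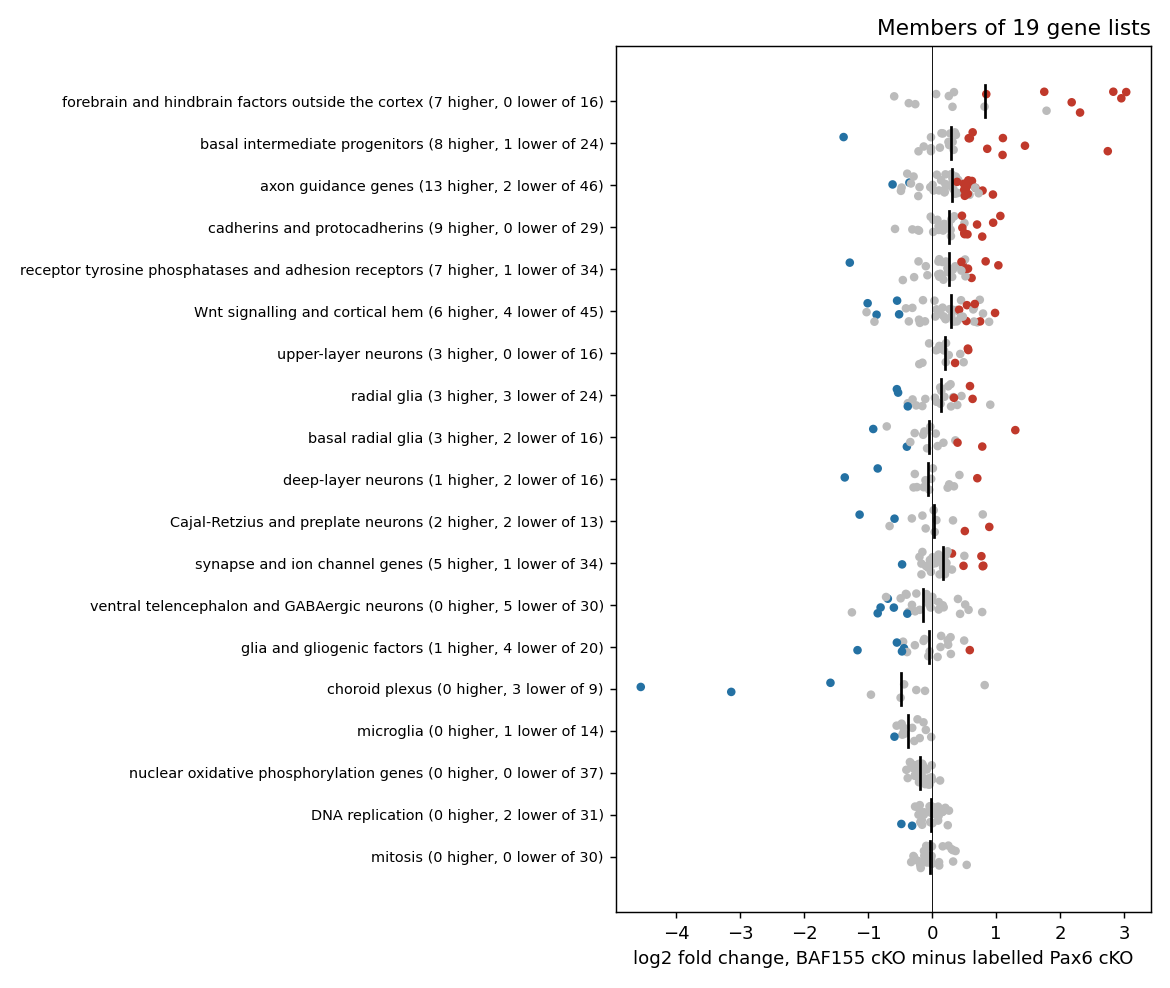
Log2 fold change (x axis, BAF155 cKO minus labelled Pax6 cKO) of each tested member of 19 gene lists; red points were called higher, blue points called lower, grey points not called, black lines are list medians, and vertical position within a row is random. The lists of factors outside the cortex, intermediate progenitors, axon guidance genes and cadherins have medians of 0.83, 0.30, 0.31 and 0.27, and oxidative phosphorylation genes lie at −0.19.

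Of 34 genes of synapses and ion channels, 5 were called higher and 1 lower (17.6%, median log2 difference 0.16). They are long too, with a median exon length of 9336.5 bases, and with the trend on exon length removed their median log2 difference was 0.041. Besides Slc17a6 they included Slc17a7, the vesicular glutamate transporter VGLUT1, at 43.8 to 64.3 CPM against 28.8 to 32.6 CPM (0.77, SE 0.15, adjusted p = 0.00981), and the calcium channel subunit Cacna2d1 (0.49, adjusted p = 0.00599). The glutamate receptor subunit Gria4 was the one called lower (−0.47, adjusted p = 0.0378), and its call was lost without BAF155 cKO replicate 1, 2 or 3 or any one labelled Pax6 cKO library (adjusted p up to 0.116). Nxph4, a secreted ligand of neurexins, was at 27.7, 34.1, 25.1 and 25.8 CPM in the BAF155 cKO and 10.6, 12.3, 9.51 and 10.3 CPM under the Pax6 cKO label (1.41, SE 0.14, adjusted p = 7.79e-05), with the controls at 16.3 to 24.5 CPM. Slc17a7, Gria4 and Nxph4 had log2 differences of 0.27, −0.087 and 0.93 with the sex term (adjusted p from 0.124 to 0.899).

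Between 7.41% and 22.2% of the members of 3 signalling lists were called, beside 4.29% of autosomal genes, and no direction is read from these counts for a pathway as a whole. Of 45 Wnt signalling and hem genes, 6 were called higher and 4 lower (22.2%, median log2 difference 0.30). Fzd9, a Wnt receptor, was at 11.1 to 16.1 CPM against 5.97 to 8.003 CPM (0.98, SE 0.17, adjusted p = 0.00413), and Sfrp2, a secreted Wnt inhibitor, at 11.6 to 15.1 CPM against 6.37 to 8.86 CPM (0.75, SE 0.13, adjusted p = 0.00424). Those lower were the R-spondin receptor Lgr6 (−1.01, adjusted p = 0.0137), the secreted proteins Frzb (−0.87, adjusted p = 0.0139) and Dkk3 (−0.55), and Wls (−0.52), which carries Wnt proteins to the cell surface. The call of Frzb was lost without labelled Pax6 cKO replicate 2 (adjusted p up to 0.05), that of Dkk3 without BAF155 cKO replicate 1 or labelled Pax6 cKO replicate 2, 3 or 4 (adjusted p up to 0.0613) and that of Wls without labelled Pax6 cKO replicate 2 or 4 (adjusted p up to 0.0594). Fzd9, Sfrp2, Dkk3 and Wls had log2 differences of 0.51, 0.48, −0.34 and −0.21 with the sex term (adjusted p from 0.718 to 0.802).

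Of 27 Notch pathway genes, 2 were called higher and 0 lower (7.41%, median log2 difference 0.14), a share near that of all genes. They were the receptors Notch2 (0.59, adjusted p = 0.00981) and Notch3 (0.64, adjusted p = 0.0092). Of 33 FGF, EGF and hedgehog genes, 2 were called higher and 2 lower (12.1%, median log2 difference −0.01). Etv4, a transcription factor induced by FGF signalling, was at 6.68, 7.10, 5.14 and 5.11 CPM against 11.1 to 12.2 CPM (−0.93, SE 0.12, adjusted p = 0.000824), and the ligand Fgf10 was lower too (−0.90, adjusted p = 0.0107). The hedgehog co-receptor Boc (0.66, adjusted p = 0.00399) and the receptor Fgfr3 (0.59, adjusted p = 0.0326) were higher, and the Fgfr3 call was lost without BAF155 cKO replicate 1 or 2 or any one labelled Pax6 cKO library (adjusted p up to 0.104). Fgfr3 was at 71.4, 60.4, 104 and 92.5 CPM in the controls, a split of 98.7% of the knockout difference. Notch2, Notch3, Fgf10, Boc and Fgfr3 had log2 differences of 0.31, 0.21, −0.51, 0.29 and 0.011 with the sex term (adjusted p from 0.783 to 0.988).

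Radial glial genes went both ways. Of 24, 3 were called higher and 3 lower (25%, median log2 difference 0.14). Slc1a3, the glutamate transporter GLAST, was at 134, 142, 151 and 154 CPM in the BAF155 cKO, 204 to 221 CPM under the Pax6 cKO label and 265 to 324 CPM in the controls (−0.55, SE 0.08, adjusted p = 0.0023). Aldoc, a glycolytic enzyme of glia, was at 37.6 to 49.5 CPM against 58.8 to 72.8 CPM (−0.53, SE 0.11, adjusted p = 0.0116), with the controls at 175 to 231 CPM. For both genes the BAF155 cKO was the lowest of the 3 groups. Veph1 was higher, at 4.35 to 5.46 CPM against 2.90 to 3.50 CPM (0.63, SE 0.12, adjusted p = 0.01), far below the controls at 26.1 to 32.9 CPM. Slc1a3 had a log2 difference of −0.30 with the sex term (adjusted p = 0.718).

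Rlbp1 and Slc14a1, which were far below control in both knockouts, did not pass the test between them. Rlbp1, a retinoid-binding protein, was at 8.68 to 11.3 CPM and 11.7 to 13.7 CPM beside 133 to 159 CPM in the controls (−0.25, SE 0.10, adjusted p = 0.155). Slc14a1, a urea transporter, was at 0.143 to 0.427 CPM and 0.0813 to 0.177 CPM beside 6.20 to 8.65 CPM (0.91, SE 0.44, adjusted p = 0.248).

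Of 20 glial and gliogenic genes, 1 was called higher and 4 lower (25%, median log2 difference −0.05). The lower ones included Slc1a3, the water channel Aqp4 (−1.17, SE 0.19, adjusted p = 0.00288) and the helix-loop-helix factor Id2 (−0.47). Of 16 basal radial glial genes, Tfap2c, Sdc3 and Foxn4 were called higher and Hopx and Plcb4 lower. That is 31.2% of the list, beside 4.29% of autosomal genes, with a median log2 difference of −0.06. Hopx, a homeodomain-only protein of outer radial glia, was at 10.3 to 14.9 CPM against 24.7 to 26.9 CPM (−0.92, SE 0.13, adjusted p = 0.00127). The other 4 calls were lost on leaving out single libraries. That of Tfap2c (0.78) was lost without labelled Pax6 cKO replicate 4 (adjusted p up to 0.057). That of Foxn4 (1.30) was lost without BAF155 cKO replicate 1 or 2 or any one labelled Pax6 cKO library (adjusted p up to 0.0936), that of Plcb4 (−0.40) without BAF155 cKO replicate 1, 2 or 3, control 2 or 3 or any one labelled Pax6 cKO library (adjusted p up to 0.144) and that of Sdc3 (0.40) without BAF155 cKO replicate 2 or 3 or labelled Pax6 cKO replicate 1, 3 or 4 (adjusted p up to 0.109). Aqp4, Id2, Tfap2c, Hopx and Plcb4 had log2 differences of −0.76, −0.26, 0.27, −0.54 and −0.65 with the sex term (adjusted p from 0.269 to 0.802).

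In the lists of upper-layer and deep-layer neurons 18.8% of members were called, beside 4.29% of autosomal genes. Of 16 upper-layer genes, Unc5d, Plxnd1 and Cux1 were called higher and 0 lower. The Cux1 call was lost without BAF155 cKO replicate 1, 2 or 3, control 2 or 4 or any one labelled Pax6 cKO library (adjusted p up to 0.121). Of 16 deep-layer genes, Tbr1 was called higher and Crym and Etv1 lower. Tbr1, a T-box factor of deep-layer neurons, was at 248.7, 295, 260.2 and 185 CPM against 149.5 to 153 CPM (0.71, SE 0.18, adjusted p = 0.0356). Its controls were at 255, 286, 472 and 444 CPM, a split as large as the knockout difference, which was −0.055 with a sex term. The Tbr1 call was lost without BAF155 cKO replicate 1, 2 or 3 or any one labelled Pax6 cKO library (adjusted p up to 0.103). Crym, a thyroid hormone-binding protein, was at 39.5, 41.97, 27.3 and 34.7 CPM against 81.3, 112, 85.6 and 93.05 CPM (−1.37, SE 0.22, adjusted p = 0.00329), with the controls at 33.3 to 73.5 CPM. Cux1 and Crym had log2 differences of 0.21 and −0.82 with the sex term (adjusted p from 0.748 to 0.793).

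Of 30 genes of ventral and GABAergic neurons, 0 were called higher and 5 lower (16.7%, median log2 difference −0.14). Lower here means lower than under the Pax6 cKO label. The control mean was below both knockout groups for 22 of the 30 and 4 of the 5. It was so for 6719 of all 15863 genes and 131 of the 681 called. Sp8, a zinc-finger factor of cortical patterning and of interneurons, was at 27.4 to 32.1 CPM against 46.2 to 56.7 CPM (−0.81, SE 0.13, adjusted p = 0.0029). Etv1, an ETS factor, was at 24.6 to 26.5 CPM against 43.5 to 47.3 CPM (−0.85, SE 0.12, adjusted p = 0.00155). In both genes all libraries labelled Pax6 cKO stood above the controls (16.6 to 27.7 CPM for Sp8 and 15.7 to 26.7 CPM for Etv1). The other 3 were the homeodomain factor Dlx1 (−0.39), the noncoding RNA Dlx6os1 (−0.69) and Npas1 (−0.60), a factor of interneurons. Dlx1 was at 481 to 535 CPM in the BAF155 cKO and 211 to 298 CPM in the controls. Dlx6os1 was at 314 to 418 CPM and 93.4 to 186 CPM in these groups. For Npas1 the BAF155 cKO, at 7.35 to 8.87 CPM, overlapped the controls at 6.74 to 12.3 CPM. All 3 calls depended on single libraries: that of Dlx1 was lost without BAF155 cKO replicate 1, 2 or 3, control 4 or any one labelled Pax6 cKO library (adjusted p up to 0.114), that of Dlx6os1 without BAF155 cKO replicate 1, 2 or 3 or any one labelled Pax6 cKO library (adjusted p up to 0.0932) and that of Npas1 without any one BAF155 cKO library, control 2 or any one labelled Pax6 cKO library (adjusted p up to 0.119). Over the leave-one-out fits, 2 to 6 members were called lower. Dlx1, Dlx6os1 and Npas1 had log2 differences of −0.23, −0.25 and −0.064 with the sex term (adjusted p from 0.793 to 0.943).

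Of 13 Cajal-Retzius and preplate genes, 2 were called higher and 2 lower (30.8%, median log2 difference 0.02). Calb2, the calcium buffer calretinin, was at 42.3, 44.9, 44.7 and 46.9 CPM against 68.4, 68.8, 68.7 and 63.1 CPM, with the controls at 34.4 to 39.5 CPM (−0.59, SE 0.07, adjusted p = 0.000402). It was lower with a sex term too (−0.69, adjusted p = 0.0452). Ndnf, a secreted factor of marginal-zone neurons, was at 30.6, 30.4, 35.96 and 27.5 CPM against 68.03, 64.4, 67.5 and 73.3 CPM (−1.14, SE 0.14, adjusted p = 0.00037). Its controls were at 44.6, 36.8, 27.8 and 27.1 CPM, those with Xist lower. The transcription factors Ebf3 (0.51) and Ebf2 (0.89), also found in this lineage, were higher, so the list has no single direction. The Ebf2 call was lost without BAF155 cKO replicate 2, 3 or 4 or any one labelled Pax6 cKO library (adjusted p up to 0.0973). Ndnf, Ebf3 and Ebf2 had log2 differences of −0.57, 0.22 and 0.33 with the sex term (adjusted p from 0.336 to 0.8285).

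Of 26 cortical patterning factors, 2 were called higher and 2 lower (15.4%, median log2 difference 0.04). Nr2f2 and Nr2f1, orphan nuclear receptors that set caudal and ventral identity in the telencephalon, were the higher ones. Nr2f2 was at 63.6, 95.4, 78.2 and 81.6 CPM against 37.3 to 48.02 CPM (0.93, SE 0.14, adjusted p = 0.00213), above the controls at 38.7 to 61.3 CPM. Nr2f1 was at 171 to 238 CPM against 109 to 136 CPM (0.78, SE 0.12, adjusted p = 0.00246), with the controls at 143 to 205 CPM. Sp8 and the zinc-finger factor Tshz3 (−0.65) were the lower ones, and the Tshz3 call was lost without BAF155 cKO replicate 3 or any one labelled Pax6 cKO library (adjusted p up to 0.0627). Nr2f2, Nr2f1 and Tshz3 had log2 differences of 0.58, 0.40 and −0.31 with the sex term (adjusted p from 0.666 to 0.793).

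Several secreted factors and receptors were lower in the BAF155 cKO. Npr3, the clearance receptor for natriuretic peptides, was at 3.73, 3.39, 3.49 and 3.0004 CPM against 11.9, 12.1, 11.9 and 12.6 CPM, a 3.54-fold difference (−1.83, SE 0.17, adjusted p = 3.74e-05), with the controls at 7.54 to 13.5 CPM. Prokr2, a prokineticin receptor needed for interneuron migration to the olfactory bulb, was at 9.98, 12.2, 12.6 and 10.3 CPM against 30.4, 42.9, 33.9 and 39.95 CPM (−1.71, SE 0.16, adjusted p = 3.74e-05). The controls, at 8.32 to 14.2 CPM, overlapped the BAF155 cKO, so for Prokr2 the libraries labelled Pax6 cKO were the ones that stood apart. Grp, the gastrin-releasing peptide, was at 0.928 to 1.205 CPM against 5.26 to 6.13 CPM (−2.35, SE 0.31, adjusted p = 0.000824), and the chemokine Cxcl12 at 12.9 to 15.96 CPM against 26.98 to 28.2 CPM (−0.94, SE 0.10, adjusted p = 8.39e-05). Grp had a log2 difference of −1.14 with the sex term (adjusted p = 0.468).

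Among the genes with the largest negative differences, the desmosomal cadherin Dsc3 was at 0.0357 to 0.319 CPM against 0.989 to 2.58 CPM (−3.28, SE 0.62, adjusted p = 0.00808) and the protease Prss56 at 0 to 0.383 CPM against 0.742 to 1.34 CPM (−2.94, SE 0.50, adjusted p = 0.00399). Few reads stand behind either gene in the BAF155 cKO. The growth factor Hgf was at 0.381 to 0.892 CPM against 1.71 to 2.56 CPM (−1.52, SE 0.31, adjusted p = 0.0115). Of 42 extracellular matrix and integrin genes, 2 were called higher and 2 lower (9.52%, median log2 difference 0.03). Fibronectin, Fn1, was higher at 89.8 to 108 CPM against 52.4 to 56.1 CPM (0.90, SE 0.12, adjusted p = 0.000661), and the brain proteoglycan Bcan was lower at 24.2 to 45.8 CPM against 63.3 to 77.6 CPM (−1.04, SE 0.15, adjusted p = 0.00166). The others were Col12a1 (−1.07, adjusted p = 0.00515) and the laminin chain Lamc1 (0.43, adjusted p = 0.0248), whose call was lost without BAF155 cKO replicate 2 or 3 or any one labelled Pax6 cKO library (adjusted p up to 0.0792). Dsc3, Hgf, Fn1, Col12a1 and Lamc1 had log2 differences of −1.44, −0.56, 0.43, −0.27 and 0.19 with the sex term (adjusted p from 0.468 to 0.802).

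Some of the largest differences followed sex in the controls. Rpl29 (chromosome 9, 106429454 to 106431568), a ribosomal protein gene with pseudogene copies, was at 1.13, 1.46, 1.27 and 1.15 CPM in the BAF155 cKO and 27.2, 32.1, 28.9 and 24.5 CPM under the Pax6 cKO label (−4.48, SE 1.03, adjusted p = 0.0424). Its controls were at 26.1, 24.3, 1.16 and 0.908 CPM, so they split as far as the knockouts did. The protease gene Prss41 was at 3.17 to 5.20 CPM and 0.0873 to 0.565 CPM in the knockout groups and at 0.165, 0.237, 3.53 and 2.91 CPM in the controls (3.71, SE 0.78, adjusted p = 0.0192). Tagap, a GTPase-activating protein gene known from lymphocytes (3.40, SE 0.63, adjusted p = 0.00781), the pseudogene Atp6v0c-ps2 (3.59, SE 0.82, adjusted p = 0.0364) and the embryonic globin gene Hbb-y (2.51, SE 0.54, adjusted p = 0.0216) split the controls the same way.

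With a sex term these differences became 0.13 for Rpl29, −0.30 for Prss41, 0.44 for Tagap, −0.047 for Atp6v0c-ps2 and −0.043 for Hbb-y. The calls of Rpl29 and Atp6v0c-ps2 were lost without any one of the 8 knockout libraries (adjusted p up to 0.117 and 0.118), and those of Prss41 without BAF155 cKO replicate 2 or labelled Pax6 cKO replicate 2, 3 or 4 (adjusted p up to 0.0821) and Hbb-y without BAF155 cKO replicate 2 or labelled Pax6 cKO replicate 2, 3 or 4 (adjusted p up to 0.0911). Reads of Rpl29, Atp6v0c-ps2 and Hbb-y are hard to assign among near-identical copies. All of these genes are autosomal, and whether sex or another property that the same libraries share moved them was not tested.

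Such genes were uneven along the genome. Of the 52 genes at least 2-fold different that split all 12 libraries this way, 11 lay on chromosome 9, 9 on chromosome 17 and 7 on chromosome 6. These chromosomes held 939, 755 and 843 of the 15863 genes tested, and 17, 11 and 11 of the 144 called at least 2-fold. Chromosome 9, which carries Smarcc1, had the highest share of called genes, 60 of 939 (6.39%), and chromosome 19 the lowest, 13 of 522 (2.49%). Within 5 Mb of Smarcc1, 16 of 156 other tested genes were called (10.3%), and in 11 of the 16 the controls split in the same direction by at least 50%. Such a split was found for 39.8% of all called genes and 55.7% of all autosomal genes tested. Within 5 Mb of Pax6, on chromosome 2, 2 of 47 were called, Kif18a (−0.44) and Fibin (−1.02), the call of Kif18a being lost without labelled Pax6 cKO replicate 4 (adjusted p up to 0.0535), and within 20 Mb 22 of 246 (8.94%).

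Of the 22 called within 20 Mb of Pax6, 16 lay 12.99 to 18.4 Mb beyond its start. Tested genes were uneven too, with 69 within 10 Mb and 246 within 20 Mb. The genes tested in that stretch alone were not counted, so no clustering is read from the 16. Eif3j1, a subunit of a translation initiation factor, was at 6.45, 7.71, 4.82 and 9.19 CPM in the BAF155 cKO, 1.31, 1.14, 1.37 and 0.873 CPM under the Pax6 cKO label and 3.92 to 5.27 CPM in the controls (2.57, SE 0.21, adjusted p = 1.01e-05), and kept its call with a sex term (2.62, adjusted p = 0.00882). Its exons overlap those of neighbouring genes. Its near-identical copy Eif3j2, on another chromosome, went the opposite way (−2.63, adjusted p = 0.0461), so reads of the pair are uncertain. The Eif3j2 call was lost without BAF155 cKO replicate 1, 2 or 4, any one control or any one labelled Pax6 cKO library (adjusted p up to 0.139). The adjoining genes Pla2g4b, a phospholipase gene, at 2.79 to 13.8 CPM against 0.609 to 1.43 CPM (2.88, SE 0.44, adjusted p = 0.00254), and Jmjd7 (2.18, SE 0.36, adjusted p = 0.00368) have overlapping exons, so their reads cannot be told apart with certainty.

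The lists of chromatin, mitosis and DNA replication genes gave few calls at the adjusted threshold. Of 30 BAF complex genes, Smarcc1 alone was called (3.33%), and the median was 0.08. By edgeR's quasi-likelihood test 9 of the 30 had an unadjusted p under 0.05, and DESeq2 called 1. Of 39 Polycomb and other chromatin genes, the histone methyltransferase Kmt2a alone was called (2.56% of the list, 0.38, adjusted p = 0.0425). Its call was lost without BAF155 cKO replicate 1, 2 or 4, control 2 or any one labelled Pax6 cKO library (adjusted p up to 0.13). In this list 11 genes had an unadjusted p under 0.05 by edgeR's test, and DESeq2 called 4. Mitosis genes gave 0 calls of 30 by edgeR's quasi-likelihood test (median −0.04, 4 at an unadjusted p under 0.05), and DESeq2 gave 0. The proliferation marker Mki67 was at 207, 260.1, 174 and 154 CPM and 168, 133, 159 and 158 CPM (0.37, adjusted p = 0.264). Of 31 DNA replication genes, Ccne2 and Gins1 were called lower (−0.48 and −0.31), a share of 6.45% beside 4.29% of autosomal genes. The call of Gins1 was lost without any one of the 12 libraries (adjusted p up to 0.141) and that of Ccne2 without BAF155 cKO replicate 1, 2 or 3 or any one labelled Pax6 cKO library (adjusted p up to 0.112). Of 18 G1 cyclins and inhibitors, 1 was called higher and 1 lower (11.1%). Both of these calls were lost on leaving out single libraries (edgeR adjusted p up to 0.121). Gins1 had a log2 difference of −0.48 with the sex term (adjusted p = 0.422).

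Nuclear genes of oxidative phosphorylation gave 0 calls of 37 by edgeR's test (11 at an unadjusted p under 0.05; 1 by DESeq2), and 36 of them had values below 0, with a median of −0.19. They are short, with a median exon length of 2101 bases. Their median with the exon length trend removed was −0.13.

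Markers of other cells moved with the groups for some types. The summed level of 10 choroid plexus genes was 22.2 to 34.03 CPM in the BAF155 cKO, 41.1 to 351 CPM under the Pax6 cKO label and 29.2 to 51.3 CPM in the controls. Ttr, the transthyretin gene that defines choroid plexus, was at 1.82, 10.53, 2.16 and 11.6 CPM in the BAF155 cKO and 12.9, 318, 91.2 and 193 CPM under the Pax6 cKO label (−4.56, SE 1.002, adjusted p = 0.0378). The sums under that label were 41.1, 351, 120 and 224 CPM, so Ttr was most of the sum in replicates 2, 3 and 4. The summed range is therefore largely that of Ttr. Its call was lost without any one BAF155 cKO library, control 2, 3 or 4 or labelled Pax6 cKO replicate 2, 3 or 4 (adjusted p up to 0.0942). Clic6 (−1.59, adjusted p = 0.0104) and Kcne2 (−3.14, adjusted p = 0.031), a pair of ion channel genes of this epithelium, were the other members called lower, of 9 tested. The share called was 33.3%, beside 4.29% of autosomal genes. The Kcne2 call was lost without any one BAF155 cKO library or labelled Pax6 cKO replicate 2 or 4 (adjusted p up to 0.115). The defining markers Folr1 and Kl were at or under 1.10 CPM in all 12 libraries.

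Blood, vessel and liver markers varied too. Microglial genes had values below 0 in all 14 cases (median −0.37), with Trem2 alone called (7.14%, beside 4.29% of autosomal genes). They summed to 75.1 to 105 CPM in the BAF155 cKO, 109 to 126 CPM under the Pax6 cKO label and 90.8 to 128 CPM in the controls. The Trem2 call was lost without any one BAF155 cKO library, control 4 or any one labelled Pax6 cKO library (adjusted p up to 0.136). Slco1c1, an organic anion transporter of brain vessels, was at 15.3 to 19.3 CPM against 38.96 to 48.9 CPM (−1.35, SE 0.23, adjusted p = 0.0048), with the controls at 47.7, 45.8, 22.2 and 20.8 CPM. Endothelial genes summed to 239 to 341 CPM and 319 to 373 CPM in the knockout groups. Alb, the serum albumin gene of liver, was at 0.621, 1.11, 25.9 and 157 CPM in the BAF155 cKO and at 0 to 0.141 CPM under the Pax6 cKO label. The part of these cells in the differences above was not tested. Trem2 and Slco1c1 had log2 differences of −0.37 and −0.23 with the sex term (adjusted p = 0.793 for both).

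With sex as a term, 9 called genes were kept: Eif3j1, Ptprt, Lpar1, Pdgfra, Slc17a6, Calb2, Sorl1, Smarcc1 and Pcna-ps2. Pdgfra, the receptor that marks oligodendrocyte precursors, was at 25.4, 31.3, 32.2 and 27.5 CPM against 18.1 to 21.6 CPM (0.53, SE 0.14, adjusted p = 0.0434). Its call was lost without BAF155 cKO replicate 2, 3 or 4 or any one labelled Pax6 cKO library (adjusted p up to 0.12), and with a sex term the difference was 1.12 (adjusted p = 0.0193). Pcna-ps2, a pseudogene of Pcna whose reads may come from Pcna itself, was at 11.03 to 16.3 CPM against 28.4 to 36.3 CPM (−1.26, SE 0.12, adjusted p = 5.83e-05). The other 4 genes called with the sex term, Ahcy, Cdh12, 2900097C17Rik and 9630028B13Rik, were not called without it.

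**Figure D5:**
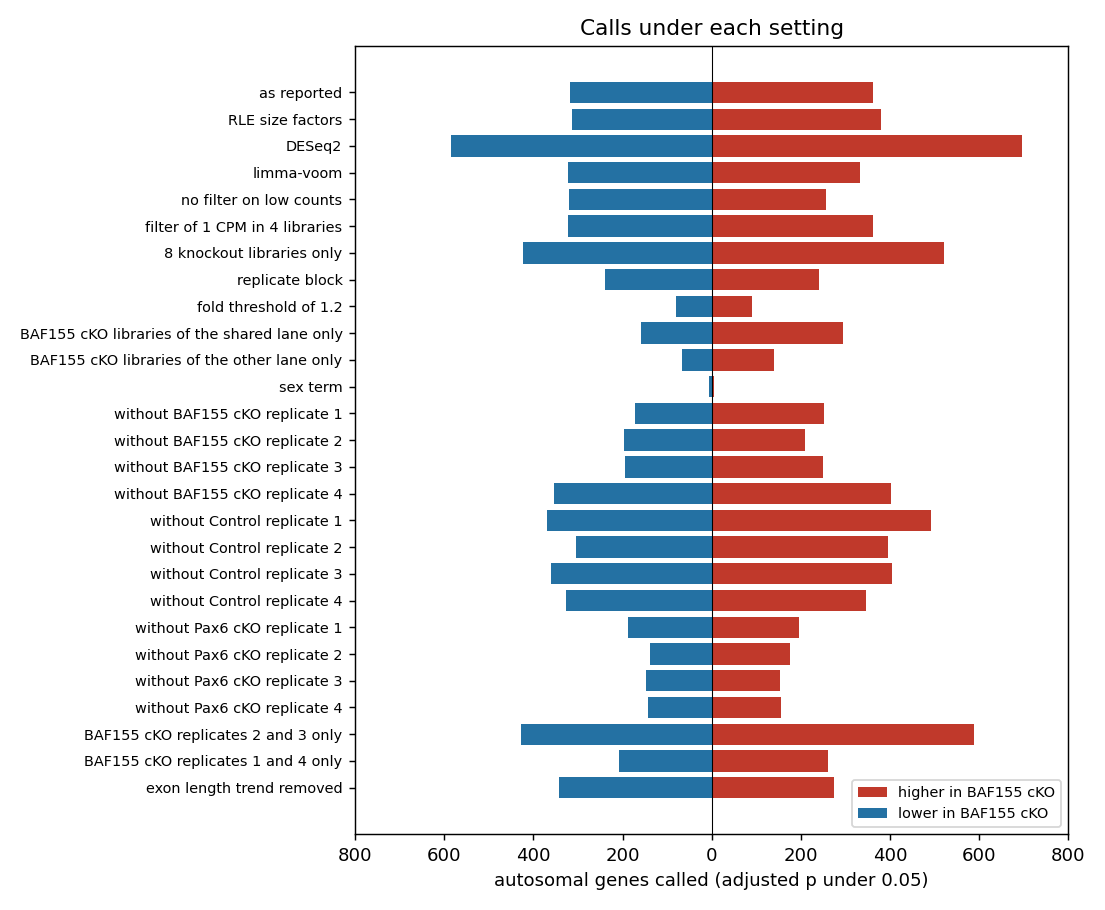
Number of autosomal genes called (adjusted p under 0.05, x axis) higher (red) and lower (blue) in the BAF155 cKO under each setting (rows). The count fell from 362 and 319 to 6 and 7 with a sex term and was between 154 and 492 higher and 139 and 369 lower on leaving out 1 library.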

How the data were processed

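RNA from embryonic cortex was measured in 12 libraries, 4 per group, with groups and replicate numbers from the sample titles. The authors deposited raw read counts per gene, whole numbers with no normalization, 1 file per library. Per the labels' protocols, RNA came from an RNeasy kit and libraries from the TruSeq RNA v2 kit. Reads were mapped to build mm10, per the submitters' processing notes. No aligner, counting program or annotation is given in the sources used here. Of 48709 gene identifiers, 48349 matched GENCODE M21, used for symbols, positions and exon length. The other 360 held at most 0.0397% of a library's reads. Lanes were read from the names of the deposited files: the libraries labelled Pax6 cKO and BAF155 cKO replicates 1 and 2 shared lane 1, BAF155 cKO replicates 3 and 4 were in lane 3 and the controls in lane 8.

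The counts went into edgeR 4.0.16 (R 4.3.3) after filterByExpr and TMM scaling. A robust quasi-likelihood model with 1 mean for each of the 3 groups used all 12 libraries. The contrast was BAF155 cKO minus labelled Pax6 cKO, with p-values adjusted by Benjamini-Hochberg over all 16511 genes and a call at an adjusted p under 0.05. The SE is the absolute log2 fold change divided by the square root of F. The model was checked on simulated data.

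The genes named are, by rule, Smarcc1, Pax6 and Smarcc2, by fold change the 15 top and 15 bottom called genes and the 10 of smallest adjusted p (groups not overlapping, at least 1 CPM in a group, no predicted models), 2 called members per list and direction, or the 2 of highest level where none was called, and 13 genes fixed by name. Other genes were named after their values were seen. Some genes covered by the rule or the lists are not reported here. Members and the 37 lists were chosen with earlier results of these data known. Alternatives were DESeq2 1.42.0, limma-voom (limma 3.58.1), RLE factors, other filters, the 8 knockout libraries alone, a fold threshold of 1.2, replicate numbers as a block, single lanes, a sex term and leaving out each library. Subsets of BAF155 cKO replicates and an exon length correction (loess, span 0.3) were added after the data were seen. The replicate numbers did not pair the libraries: deviations of same-numbered BAF155 cKO and labelled Pax6 cKO libraries correlated at 0.38, 0.33, −0.17 and −0.06.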

Additional observations from a re-analysis of the deposited data

Results flagged for a closer look

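In 11 of 222 groups of 4 libraries checked (4.95%), 1 library stood farther from the other 3 than Dixon's 95% limit allows. In independent groups that limit is passed by chance about 1 time in 20. These groups share the same libraries and their genes were mostly named for being called, so no conclusion is drawn from the share. In the BAF155 cKO, replicate 2 was high for Kirrel2 (20.3 CPM, the others 11.9 to 12.6), Clic6 (1.18 CPM, the others 0.699 to 0.761) and Notch3 (38.9 CPM, the others 32.6 to 33.7). Replicate 3 was low for Hgf (0.381 CPM, the others 0.815 to 0.892) and Boc (40.6 CPM, the others 48.3 to 49.7) and high for Eif3j2 (4.31 CPM, the others 0.194 to 0.255). Among the libraries labelled Pax6 cKO, replicate 4 was high for Snap25 (253 CPM, the others 233 to 236) and low for Calb2 (63.1 CPM, the others 68.4 to 68.8) and Boc (26.02 CPM, the others 30.5 to 31.1). Replicate 2 was high for Plxnd1 (66.7 CPM, the others 51.0 to 53.3), and replicate 1 was high for Hbb-y (2.19 CPM, the others 1.35 to 1.43).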

How the results depend on the processing

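With sex as a term, 6 genes were called higher and 7 lower, 3 and 6 of them at least 2-fold, and among named genes the sign turned for Atp6v0c-ps2 (−0.047), Hbb-y (−0.043), Nmnat3 (0.16), Prss35 (0.49), Prss41 (−0.30), Rpl29 (0.13), Tbr1 (−0.055) and Uncx (−0.69). No other setting turned the sign of any of the called genes it tested. DESeq2 called 697 higher and 584 lower. A fold threshold of 1.2 left 91 and 81, with 40 at least 2-fold lower. With BAF155 cKO libraries of the shared lane only, 294 were higher and 159 lower (64.9% of calls higher, against 53.2%). With those of the other lane only, 140 were higher and 66 lower (68%), 31 of the latter at least 2-fold. With BAF155 cKO replicates 2 and 3 only, 588 were higher and 429 lower, and with 1 and 4 only, 262 and 209, of which 42 were at least 2-fold lower. With the replicate number as a block, 241 were called higher and 239 lower. Since the numbers do not pair the libraries, a call lost under the block is not read as a weaker effect. Leaving out 1 library at a time gave 154 to 492 higher, 139 to 369 lower, 40 to 68 at least 2-fold higher and 44 to 86 at least 2-fold lower. Of 99 named genes that were called, 61 kept the call without each of the 12 libraries and 38 lost it at least once. For settings that use fewer BAF155 cKO libraries, fewer samples enter the fit; for the others the cause was not tested. Genes under 1 CPM rest on few reads at these depths.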
